A study of Homo sapiens with 6 samples.

Results

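The genes described here are 10 immediate early genes outside the AP-1 family: *EGR1*, *EGR2*, *EGR3*, *IER2*, *IER3*, *IER5*, *NR4A1*, *SRF*, *ZFP36* and *KLF6*. They were chosen by name, as genes that serum and growth factors induce, but with earlier results of these data known. Each symbol matched 1 gene of the 21475 measured. Of the 10, 9 had a mean of at least 0.5 FPKM over all libraries and were tested, and *EGR2* did not reach it. RNA was sequenced from 3 WT and 3 *FGFR2* KO lines of HaCaT, a spontaneously immortalized human keratinocyte line, with 1 library per line. The KO lines were made with CRISPR/Cas9, using a guide RNA into an exon of *FGFR2*, and each was grown from a clone. The WT lines of the study comprised the original cell population and expanded clones. A figure legend of the study describes the 3 HaCaT lines behind its sequencing values as clonally expanded. The labels do not say which of the WT replicates is which. All lines were cultured in DMEM with FBS and the labels name no stimulus, so the data hold levels in growing cultures and no time course after induction. In bulk RNA, fewer cells of a kind and less RNA per cell cannot be told apart.

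Immediate early genes are transcribed within minutes of a stimulus because the factors that drive them are already present in the resting cell. Receptor tyrosine kinases such as FGFR2 act on many of them through the RAS-ERK cascade, which phosphorylates ternary complex factors that sit on DNA together with the serum response factor, SRF. The products are transcription factors (the EGR proteins, NR4A1 and KLF6), a protein that degrades mRNA (ZFP36) and short-lived regulators of growth and survival (the IER proteins), and many of their mRNAs are themselves degraded within a short time.

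The stretches of promoter that follow are shown because they hold the sites that link the members to each other. They are RefSeq sequences of GRCh38.p14 and run 5′ to 3′ on the strand of the gene. Positions are counted from the start of the RefSeq transcript, with -1 as the base before it. That start need not be the outer end of the gene in GENCODE, whose positions are given for each gene in the later text: in *EGR2*, *KLF6* and *NAB2* all or nearly all of the stretch shown lies inside the GENCODE gene span, so it is upstream of the RefSeq start and not of the whole gene. The searched window ran from 250 bases before the start to 50 after it, and 8 of the 10 members had an entry, all except *EGR3* and *IER3*. Capitals mark the CArG box, which SRF binds, in *EGR1*, *EGR2* and *SRF*, and the EGR site GCGGGGGCG, which EGR proteins bind, in *SRF*, *KLF6* and *NAB2*, the gene of a co-repressor of EGR proteins.
EGR1, chr5:138465229-138465478, plus strand: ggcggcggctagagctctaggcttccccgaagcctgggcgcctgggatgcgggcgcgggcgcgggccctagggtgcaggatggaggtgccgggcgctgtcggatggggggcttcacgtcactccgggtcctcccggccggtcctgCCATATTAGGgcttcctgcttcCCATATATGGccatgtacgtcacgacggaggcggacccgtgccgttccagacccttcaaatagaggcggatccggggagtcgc
EGR2, chr10:62816387-62816486, minus strand: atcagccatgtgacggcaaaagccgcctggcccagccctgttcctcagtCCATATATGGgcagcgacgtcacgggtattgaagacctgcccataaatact
SRF, chr6:43171149-43171268, plus strand: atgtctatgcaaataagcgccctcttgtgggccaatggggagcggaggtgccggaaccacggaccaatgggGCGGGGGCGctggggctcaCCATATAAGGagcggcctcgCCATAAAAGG
KLF6, chr10:3785256-3785284, minus strand: ggggagccagGCGGGGGCGgagggggagg
NAB2, chr12:57089042-57089070, plus strand: tgtgcgtcctGCGGGGGCGgaggcgcgga

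*EGR1* held a pair of CArG boxes, from -105 to -96 and from -83 to -74, and *SRF* held a pair from -30 to -21 and from -10 to -1. *EGR2* held a single CArG box from -71 to -62, with the same letters as the second box of *EGR1*. Searched on both strands, the CArG box was in 1.29% of all 35116 promoter windows, and only 11 windows (0.0313%) held 2 or more. The EGR site was in 5.07% of the windows and lay from -49 to -41 in *SRF*, from -65 to -57 in *KLF6* and from -62 to -54 in *NAB2*. The core of the cAMP response element, TGACG, was in 24.6% of the windows and in those of *EGR1*, *EGR2*, *IER2* and *SRF*. A match of letters describes the window and does not show that a factor was bound in these cells.

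The libraries held an estimated 67700000 to 88000000 fragments. The targeted gene *FGFR2* was at 21.6, 39.7 and 15.0 FPKM in the WT lines and at 3.04, 2.26 and 4.31 FPKM in the KO lines, so the libraries matched their labels. All 10 keratinocyte markers of the fixed list were expressed, with *KRT5* between 6090 and 14800 FPKM. Of the fibroblast and melanocyte markers, 4 of 7 and 4 of 6 stayed at or below 0.1 FPKM in all libraries, and the summed level of the fibroblast list was 7.99 to 33.2 FPKM in WT and 6.92 to 12.6 FPKM in KO. Endothelial markers summed to 18.1 to 27.2 FPKM in WT and 5.82 to 17.5 FPKM in KO, most of it from *VWF* and with *KDR* at 0, and immune markers to 12.5 to 22.3 FPKM in WT and 5.27 to 11.7 FPKM in KO, most of it from *CD68*. WT replicate 2 and KO replicate 3 lay at the ends of the first principal component (49.1% of the variance), at -46.3 and 47.7 against -18.7 to 17.8 for the other libraries. Mitochondrial genes took 27.6%, 21.5% and 22.2% of the summed FPKM in WT replicates 1 to 3 and 15.8%, 23.7% and 11.9% in KO replicates 1 to 3.

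In WT cultures, grown with FBS and with no further stimulus named in the labels, most members were expressed at a moderate level. FPKM is scaled to gene length, so levels can be set beside each other. *IER2* had the highest WT mean with 23.5 ± 6.69 FPKM (SD, n = 3). It was followed by *KLF6* (18.1 ± 2.73 FPKM), *ZFP36* (14.7 ± 1.05 FPKM), *IER5* (14.1 ± 2.47 FPKM), *SRF* (12.8 ± 0.97 FPKM) and *IER3* (12.8 ± 3.35 FPKM), and the values of each neighbouring pair in this order overlapped. *EGR1* stood below them at 7.16 ± 2.18 FPKM. *EGR3* and *NR4A1* were lower again, at 2.38 ± 0.98 and 1.91 ± 1.56 FPKM, and overlapped each other but not *EGR1*. *EGR2* was barely detected at 0.0877 ± 0.0218 FPKM, which made the span from the highest to the lowest mean 268-fold.

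In the KO lines *IER3* had the highest mean, with 29.3 ± 9.29 FPKM (SD, n = 3). *IER2* came next at 25.2 ± 6.21 FPKM and overlapped it, lying above *IER3* in KO replicate 2 (19.1 against 18.7 FPKM), then *IER5* at 18.5 ± 5.63 FPKM. *KLF6* (14.7 ± 0.63 FPKM), *ZFP36* (13.8 ± 2.21 FPKM), *SRF* (12.9 ± 1.11 FPKM) and *EGR1* (12.8 ± 3.05 FPKM) followed, each overlapping its neighbour, so that *EGR1* reached the level of *SRF*. *EGR3* (2.55 ± 1.63 FPKM) lay apart from *EGR1* and overlapped *NR4A1* (1.61 ± 0.17 FPKM), and *EGR2* was again last at 0.105 ± 0.00854 FPKM. *IER3* made up 11.9% of the summed FPKM of the 10 genes in WT and 21.9% in KO. That sum was 99.1, 110.0 and 113 FPKM in the WT lines and 153, 106 and 136 FPKM in the KO lines, so KO replicate 2 lay within the WT range and the other KO lines above it.

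**Figure D1:**
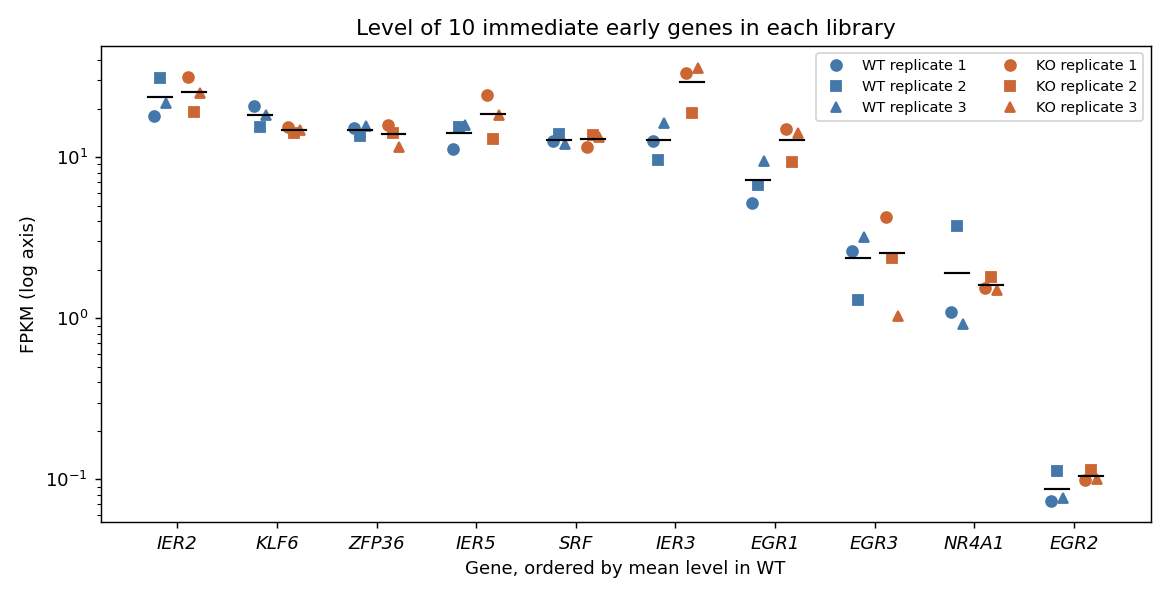
The plot gives the level of each gene in FPKM on a log axis, with genes ordered by their WT mean, WT libraries in blue, KO libraries in orange, a symbol for each replicate number and a bar for each group mean. All 3 orange points lie above all 3 blue points for *IER3* (18.7 to 35.9 against 9.56 to 16.2 FPKM), and for *EGR1* only the highest WT point and the lowest KO point cross.

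No member passed the test between KO and WT. limma was fitted on log2(FPKM + 0.5) over 12241 genes, and a call needed an adjusted p no higher than 0.05 together with a log2 fold change of 0.5 or more in either direction. The call rate was 0% over all tested genes, with a smallest adjusted p of 0.261, and 2065 genes had an unadjusted p of at most 0.05. The targeted gene *FGFR2*, with a log2 fold change of -2.73, was not called either, so a missing call does not show a missing difference. The study's own test, DESeq2, did report differentially expressed genes, with *FOS* and *IL1B* among those higher in KO. By size and unadjusted p alone, 2 of the 9 tested members, *IER3* and *EGR1*, were higher in KO and none was lower, where 10.2% of all tested genes were higher and 2.33% lower. Each KO value exceeded each WT value for 1 member, *IER3*, against 18.3% of all genes, and below them for none, against 5.77%. Counts this small over 9 members are not set apart from those shares. The fitted log2 fold changes were positive for 6 and negative for 3 members, with a median of 0.01 beside 0.09 over all genes, of which 60.6% were positive. Without WT replicate 2 the median of the members was 0.32. The library weights of limma gave WT replicate 1 a weight of 10.3 and each other library at most 1.49. With them 3 of the 9 tested members were called higher (*EGR1* by 1.19, *IER3* by 1.18 and *IER5* by 0.75 on the log2 scale). Of all 12241 tested genes 1396 were then called, 1160 of them higher. A count over 9 members is too small to be read as a result about them.

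**Figure D2:**
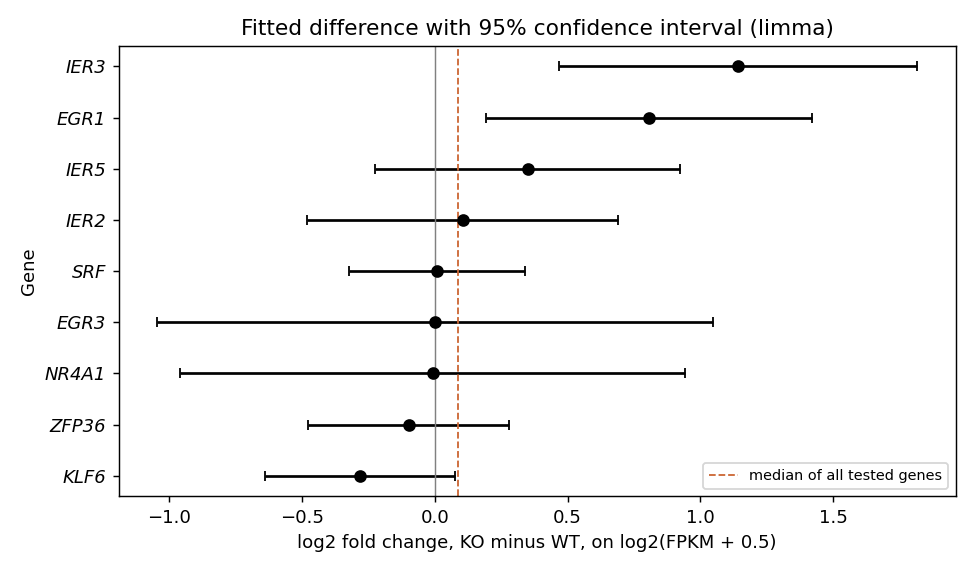
Points give the fitted log2 fold change of each tested gene, KO minus WT, on log2(FPKM + 0.5), with bars for the 95% confidence interval from limma, a grey line at 0 and a dashed line at the median of all tested genes (0.09). The intervals of *IER3* and *EGR1* lie above 0, those of the other 7 genes include 0, and those of *EGR3* and *NR4A1* are the widest.

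*EGR1*, a zinc-finger factor that growth factors induce, was higher in KO in most lines without passing the adjusted test. *EGR1* (ENSG00000120738) lies on chromosome 5 from 138465479 to 138469303 in GRCh38, on the plus strand. It was at 5.21, 6.75 and 9.51 FPKM in WT and at 14.9, 9.30 and 14.2 FPKM in KO. The groups overlapped by 0.21 FPKM, since WT replicate 3 lay above KO replicate 2, and the other KO lines stood above all WT lines. The ratio of the means was 1.79, and the log2 fold change was 0.81 (SE 0.26, 95% interval 0.19 to 1.42, adjusted p = 0.261 with limma). The two-sided exact permutation test gave p = 0.2, where 3 against 3 cannot go below 0.1. An estimated 1327 to 4112 fragments lay behind each value, so counting error was small beside the spread between lines.

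The other EGR genes had lower levels than *EGR1* in both groups. *EGR3* (ENSG00000179388), on chromosome 8 from 22687659 to 22693480, was at 2.63, 1.29 and 3.21 FPKM in WT and at 4.27, 2.35 and 1.03 FPKM in KO. Its highest and its lowest value were both in KO lines, and the log2 fold change was 0.00 (SE 0.45, 95% interval -1.05 to 1.05, adjusted p = 0.999 with limma). The sign turned with single libraries, from -0.39 without KO replicate 1 to 0.42 without KO replicate 3. *EGR2* (ENSG00000122877), on chromosome 10 from 62811996 to 62819167, was at 0.0739, 0.113 and 0.0763 FPKM in WT and at 0.0991, 0.115 and 0.101 FPKM in KO. These values stand for an estimated 16 to 26 fragments per library, the groups overlapped, and no model was fitted (exact permutation p = 0.3). *EGR4*, the remaining paralog, was at 0 in 5 libraries.

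NAB1 and NAB2 bind EGR proteins and repress their activity, and *NAB2* is itself a target of EGR factors. *NAB2* was at 20, 18.0 and 29.1 FPKM in WT and at 40.3, 27.1 and 36.7 FPKM in KO. Here too WT replicate 3 lay above KO replicate 2 and no other pair crossed, as for *EGR1*. The log2 fold change was 0.63 (SE 0.23, 95% interval 0.10 to 1.16, adjusted p = 0.261 with limma). *NAB1* had a higher level, 60.6 to 69.3 FPKM in WT and 66.1 to 72.4 FPKM in KO, with overlapping groups and a log2 fold change of 0.12. Neither was called.

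*IER3*, which encodes a short-lived regulator of survival and of ERK signalling also known as IEX-1, showed the largest difference among the members. *IER3* (ENSG00000137331) lies on chromosome 6 from 30743199 to 30744548, on the minus strand. It was at 12.5, 9.56 and 16.2 FPKM in WT and at 33.3, 18.7 and 35.9 FPKM in KO. Every KO line stood above every WT line, with KO replicate 2 nearest to the WT range, and the two-sided exact permutation test gave its smallest possible p of 0.1. The log2 fold change was 1.14 (SE 0.29, 95% interval 0.47 to 1.82), at an unadjusted p of 0.00476 and an adjusted p of 0.261 with limma. Over the 18 alternatives its lowest value was 0.96 (WT replicate 2 left out) and its highest 1.43 (KO replicate 2 left out), and limma's adjusted p ran from 0.0313 to 0.619.

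The other IER genes overlapped between the groups. *IER5* (ENSG00000162783), on chromosome 1 from 181088700 to 181092900, encodes a nuclear cofactor of the heat shock factor HSF1 and has a single exon. It was at 11.2, 15.4 and 15.7 FPKM in WT and at 24.2, 13 and 18.2 FPKM in KO, where KO replicate 2 fell within the WT range and the other lines lay above it. The log2 fold change was 0.35 (SE 0.25, 95% interval -0.22 to 0.93, adjusted p = 0.481 with limma), and it was 0.14 without KO replicate 1. *IER2* (ENSG00000160888), on chromosome 19 from 13150411 to 13154911, encodes a nuclear protein of the same family. It was at 17.9, 30.9 and 21.8 FPKM in WT and at 31.5, 19.1 and 25.1 FPKM in KO. The lines of both groups were interleaved, and the log2 fold change was 0.11 (SE 0.25, 95% interval -0.48 to 0.69, adjusted p = 0.849 with limma).

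*NR4A1*, an orphan nuclear receptor also called NUR77, was carried by 1 library. *NR4A1* (ENSG00000123358), on chromosome 12 from 52022832 to 52059507, was at 1.10, 3.71 and 0.923 FPKM in WT and at 1.54, 1.81 and 1.5 FPKM in KO. WT replicate 2 was the highest of all libraries, while the other WT lines were the lowest, and the KO lines lay close together between them. The log2 fold change was -0.01 (SE 0.41, 95% interval -0.96 to 0.94, adjusted p = 0.995 with limma). Without WT replicate 2 the WT mean was 1.01 FPKM, all KO values lay above the remaining WT values, and the log2 fold change was 0.48. WT replicate 2 was also the library with 15.5 FPKM of the fibroblast marker *DCN* and 4.92 FPKM of the endothelial marker *CDH5*. The other libraries held at most 1.66 and 0.128 FPKM. The rest of these marker lists was mixed. *COL1A1* (16.7 FPKM) and *PECAM1* (0.321 FPKM) were also highest in WT replicate 2. *VWF* was highest in WT replicate 3 (27.1 FPKM) and *LUM* in KO replicate 1 (1.85 FPKM), and *COL3A1* and *KDR* were at 0 in WT replicate 2. The part of these markers in the *NR4A1* value was not tested. The paralog *NR4A2* was at 2.17 to 2.94 FPKM in WT and 1.79 to 2.49 FPKM in KO, and *NR4A3* stayed below 0.1 FPKM throughout.

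*SRF*, the factor on which the CArG boxes of *EGR1* and *EGR2* depend, had the narrowest spread of the members. *SRF* (ENSG00000112658), on chromosome 6 from 43171269 to 43181506, was at 12.6, 13.9 and 12 FPKM in WT and at 11.6, 13.7 and 13.4 FPKM in KO. The groups overlapped over most of their range, and the log2 fold change was 0.01 (SE 0.14, 95% interval -0.32 to 0.34, adjusted p = 0.982 with limma). Of the genes of its partner factors, *ELK1*, *ELK3*, *ELK4*, *MRTFA* and *MRTFB*, 2 had positive and 3 negative log2 fold changes, from -0.20 for *MRTFA* to 0.22 for *ELK1*, and none was called or lay apart between the groups. *MYOCD*, the partner found in heart and smooth muscle, was at or near 0.

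The cytoskeletal genes that SRF and the MRTF co-activators are known to drive were followed as a group. Of 16 genes 15 were tested, 10 with positive and 5 with negative log2 fold changes, where 60.6% of all genes were positive, and none was called. The median was 0.32 beside 0.09 over all genes, and it was 0.19 without WT replicate 3 or without KO replicate 3 and 0.12 with chromosome medians removed. The KO values all exceeded the WT values for 5 of the 15, against 18.3% of all genes, and lay below for none, against 5.77%. *ACTG1*, cytoplasmic gamma actin, was at 565, 552 and 436 FPKM in WT and at 941, 803 and 1250 FPKM in KO, a log2 fold change of 0.93 (adjusted p = 0.261 with limma). *FLNA*, the actin crosslinker filamin A, was at 204, 147 and 256 FPKM in WT and at 337, 308 and 466 FPKM in KO, a log2 fold change of 0.88. At the other end were *CALD1* and *TAGLN*, present at 0.396 to 3.78 and 0.505 to 1.78 FPKM, with log2 fold changes of -0.86 and -0.50 and overlapping groups.

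*ZFP36*, which encodes tristetraprolin, a protein that binds AU-rich elements (AREs) of mRNAs and speeds their decay, did not differ between the groups beyond their spread. *ZFP36* (ENSG00000128016), on chromosome 19 from 39406847 to 39409412, was at 15.1, 13.5 and 15.5 FPKM in WT and at 15.8, 14.2 and 11.5 FPKM in KO. Only KO replicate 3 lay below the WT range, and the log2 fold change was -0.10 (SE 0.16, 95% interval -0.48 to 0.28, adjusted p = 0.774 with limma). Its paralog *ZFP36L1* was far more abundant, at 107 to 134 FPKM in WT and 68.9 to 142 FPKM in KO, with a log2 fold change of -0.31.

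Of 11 mRNAs known as ZFP36 targets, 7 were tested and none was called. *IL1B*, a pro-inflammatory cytokine, was at 0.255, 0.0849 and 0.773 FPKM in WT and at 3.22, 1.22 and 5.49 FPKM in KO, with all KO lines above all WT lines and a log2 fold change of 2.03 (SE 0.49, adjusted p = 0.261 with limma). Its WT mean of 0.371 FPKM was below the limit of 0.5 FPKM for testing, which the gene passed only through its KO mean of 3.31 FPKM. *PLAU*, the plasminogen activator urokinase, lay the other way, at 49.7, 98.8 and 35.1 FPKM in WT and at 34.6, 27.8 and 16.7 FPKM in KO, a log2 fold change of -1.13. The chemokines *CXCL8* and *CXCL1* overlapped between the groups, with log2 fold changes of 0.63 and -0.15. *TNF*, the best known target, was at or below 0.0351 FPKM in every library.

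*KLF6*, a zinc-finger factor of the Krüppel-like family, was the member with the most negative log2 fold change. *KLF6* (ENSG00000067082), on chromosome 10 from 3775996 to 3785281, was at 20.8, 15.3 and 18.3 FPKM in WT and at 15.3, 14.1 and 14.8 FPKM in KO. The KO lines lay close together at the lower end, and the groups touched, with KO replicate 1 at 15.312 and WT replicate 2 at 15.299 FPKM. The log2 fold change was -0.28 (SE 0.15, 95% interval -0.64 to 0.08, adjusted p = 0.379 with limma, exact permutation p = 0.2). The median gene of chromosome 10 lay 0.33, 0.11 and 0.05 below the WT mean on the log2 scale in KO replicates 1 to 3. In WT replicates 1 to 3 it was at -0.02, 0.17 and -0.15, so that only KO replicate 1 lay outside the WT range, and after subtraction of chromosome medians the log2 fold change of *KLF6* was -0.13. *FGFR2* is on the same chromosome, from 121478332 to 121598458, and a link with the level of *KLF6* was not tested. Among the other Krüppel-like genes, *KLF4* had a log2 fold change of 0.63 and *KLF7* one of -0.33, both with overlapping groups.

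**Figure D3:**
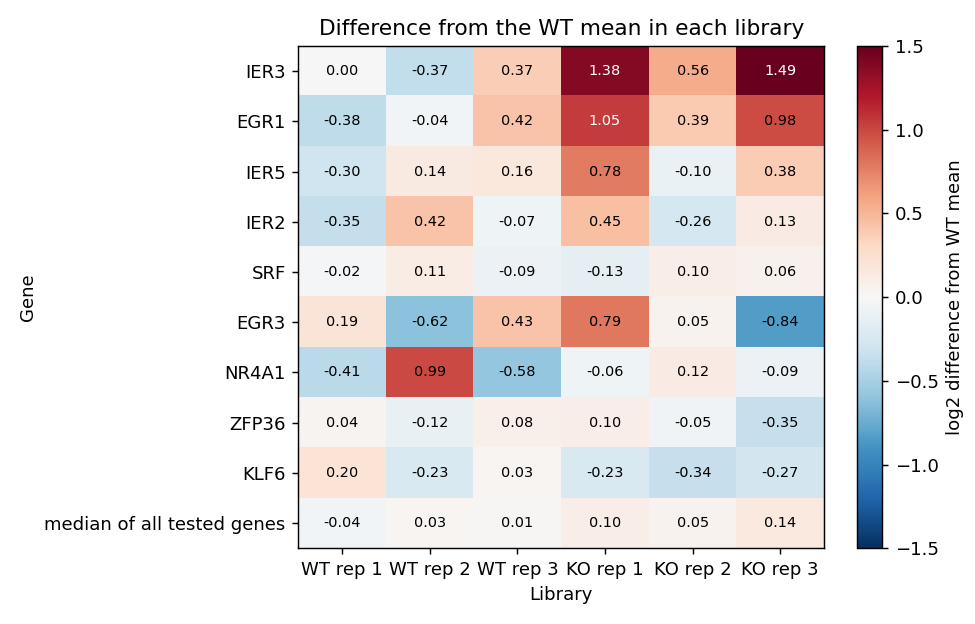
Each cell gives the log2 difference of a gene in a library from the mean of the WT libraries, on log2(FPKM + 0.5), from blue (lower) to red (higher), with genes ordered by log2 fold change and the median of all tested genes in the last row. KO replicates 1 and 3 are red for *IER3*, *EGR1* and *IER5* (0.38 to 1.49), KO replicate 2 is nearer to 0 in these genes, and WT replicate 2 stands out for *NR4A1* (0.99).

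The higher values of *IER3*, *EGR1* and *IER5* were not spread evenly over the KO lines. KO replicate 1 differed from the WT mean by 1.38, 1.05 and 0.78 on the log2 scale in these genes, and KO replicate 3 by 1.49, 0.98 and 0.38. KO replicate 2 differed by 0.56, 0.39 and -0.10. The KO lines with the larger differences were those with the smaller mitochondrial share of FPKM (15.8% and 11.9%), and KO replicate 2, with 23.7%, was within the WT range of 21.5% to 27.6%. Scaling all libraries to their nuclear genes was a setting added after the data had been seen. The log2 fold changes were then 1.06 for *IER3* and 0.73 for *EGR1*, and *EGR1* lay higher in every KO line than in every WT line. The groups of *EGR1* also lay apart with chromosome medians removed, and they overlapped with TPM, median-of-ratios and quantile scaling. The part of the mitochondrial share in these values was not tested.

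The pattern of *EGR1* over the 6 libraries was compared with that of every tested gene by the root-mean-square difference of centred log2(FPKM + 0.5) values. The nearest was *SLC6A8*, the creatine transporter, at a difference of 0.0629, with 22.3, 28.4 and 39.0 FPKM in WT and 58.8, 38.6 and 64.5 FPKM in KO. *NAPRT* (0.0783), an enzyme of NAD synthesis, *HAGHL* (0.0964), the alanine aminotransferase gene *GPT2* (0.0994) and *PLAUR* (0.103), the urokinase receptor, came next. The median over all genes was 0.508, about the 0.51 that a gene with no change over the libraries would have. Among the members *IER5* (0.282) and *IER3* (0.285) were nearest to *EGR1*, at ranks 619 and 669, *IER2* was at 0.453, and *SRF*, *ZFP36*, *KLF6*, *EGR3* and *NR4A1* (0.545 to 0.763) lay beyond the value of such a flat gene.

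Of 27 other immediate early genes outside AP-1, 24 were tested, with 11 positive and 13 negative log2 fold changes and a median of -0.06, which turned to 0.033 without WT replicate 2, 0.022 without KO replicate 3 and 0.15 with library weights. None was called, and by size and unadjusted p 3 were higher, against 10.2% of all genes, and 2 lower, against 2.33%. The KO values all exceeded the WT values for 1 gene, *MYC*, against 18.3% of all genes. They all lay below for 1 gene, *RHOB*, against 5.77%. *CCN1*, a matricellular protein, was at 2.84, 2.62 and 4.56 FPKM in WT and at 5.19, 4.39 and 10.5 FPKM in KO, a log2 fold change of 0.85. *MYC*, the growth-promoting transcription factor, was at 18.6, 29.3 and 25.2 FPKM in WT and at 44.1, 29.3 and 57.7 FPKM in KO, a log2 fold change of 0.80. Its groups nearly touched, since WT replicate 2 and KO replicate 2 both round to 29.3 FPKM. *BTG2*, an antiproliferative gene, lay lower, at 112, 165 and 92.5 FPKM in WT and 61.4, 94.4 and 35.3 FPKM in KO, with 1 pair of lines crossing and a log2 fold change of -1.02. *RHOB*, a small GTPase, was at 4.73, 4.6 and 5.45 FPKM in WT and at 3.12, 2.99 and 1.28 FPKM in KO, with no overlap and a log2 fold change of -0.94. Of the paralogs of the members 8 were tested, 6 with negative log2 fold changes, and none was called. Their median was -0.17, and -0.043 without KO replicate 3. *IER5L*, the paralog of *IER5*, was at 0.22.

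The AP-1 genes, given for comparison, had a median log2 fold change of 0.03 over 7 tested genes with none called. *FOS*, which is itself driven by SRF and the ternary complex factors, was at 1.41, 2.25 and 1.75 FPKM in WT and at 6.39, 5.04 and 6.59 FPKM in KO, a log2 fold change of 1.51 (SE 0.21, adjusted p = 0.261 with limma). *FOS* lay apart between the groups in KO replicate 2 as well, where *EGR1* was within the WT range. *FOSL1* had a log2 fold change of 1.71, and *FOSL2* and *FOSB* were at -0.34 and -0.33 with overlapping groups.

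Heat shock genes were the list with the highest median. All 10 were tested, 8 with positive and 2 with negative log2 fold changes, the median was 0.56, and none was called. The KO values all exceeded the WT values for 6 of the 10, against 18.3% of all genes, and lay below for none, against 5.77%. Their summed level was 3690 to 4930 FPKM in WT and 5490 to 7210 FPKM in KO. *HSPA8* and *HSP90AA1* had log2 fold changes of 1.26 and 0.998, *BAG3* and *HSPB1* of -0.13 and -0.51. The part of this difference in the values of *IER3*, *EGR1* and *IER5* was not tested.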

How the data were processed

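Reads from 6 TruSeq stranded mRNA libraries were, per the labels and the study's methods, trimmed with fastp 0.20.0 and pseudoaligned with kallisto 0.46.1 to GRCh38.p13 with GENCODE gene models. The values the authors deposited are FPKM per gene, fragments scaled to gene length and library depth, and how FPKM was derived is not given in the sources used here. Of 21493 rows, 18 Y copies of pseudoautosomal genes were dropped. Symbols and positions came from GENCODE release 44 by gene identifier and matched 21400 genes. Overlapping genes and near-identical copies may share reads in such values.

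Low values move in steps, which gave the depth estimate. Of 4714 low values, 67.4% came out whole with a tolerance of 0.02 fragments, where 4% would by chance, so reads were not rebuilt and no count model was run. The 12241 genes that averaged 0.5 FPKM or more were compared with limma 3.58.1 in R 4.3.3 (trended empirical Bayes, pseudocount 0.5, Benjamini-Hochberg over all of them, no covariate). Fold changes on this scale understate those of low genes. The fit was tested on simulated data with known changes. These were larger than the log2 fold change of any member, so the simulation does not show what the fit can detect at the members' sizes. Exact permutation tests were two-sided. The replicates are separate lines, and p-values measure the spread between them.

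Named genes were all members, *FGFR2*, *FOS*, the 2 highest and 2 lowest tested genes of each list other than the cell type markers, and the 5 genes nearest to *EGR1*. Other genes named (*EGR4*, *NR4A2*, *NR4A3*, *TNF*, *MYOCD* and markers) were chosen after their values were seen. The members and lists were chosen with earlier results of these data known. Alternatives numbered 17 planned and 1 added after the data had been seen.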

Additional observations from a re-analysis of the deposited data

How the results depend on the processing

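No member and no gene was called in 17 of the 18 alternatives. With library weights, 3 of the 9 tested members and 1396 of the 12241 tested genes were called, 1160 of these genes higher. The members' median was then 0.36. The number of members whose groups did not overlap was 2 with median-of-ratios scaling and with quantile normalization (*IER3*, *KLF6*), 2 with chromosome medians removed (*IER3*, *EGR1*), 3 with scaling to nuclear genes, added after the data had been seen (*IER3*, *EGR1*, *KLF6*), and 1 to 3 with each replicate left out. The matching shares of all tested genes were not computed for these settings, so the counts cannot be read as a result about the members. Groups with fewer lines also separate more readily, so counts with a replicate left out do not compare with the main count. With each replicate left out, the members' median ran from -0.024 (KO replicate 2) to 0.32 (WT replicate 2), and under the other scalings it was lowest with median-of-ratios, at -0.077. *IER3*, *EGR1*, *IER5* and *KLF6* kept their sign in all 18 alternatives.

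Signs turned only for log2 fold changes near 0. *EGR3* was at -0.016 (pseudocount 0.1), -0.077 (median-of-ratios), -0.0103 (quantile), -0.21 (chromosome medians removed) and -0.061 (nuclear genes). *SRF* was at -0.083, -0.095, -0.076 and -0.068 in the last 4 of these and at -0.024 with library weights. *NR4A1* was at 0.033 with a pseudocount of 0.1, at 0.031 with TPM scaling and at 0.36 with library weights, and *IER2* at -0.0107 with quantile normalization. With each replicate left out, *EGR3* ran from -0.39 to 0.42, *NR4A1* from -0.30 to 0.48, *IER2* from -0.0705 to 0.32, *SRF* from -0.037 to 0.079 and *ZFP36* from -0.20 to 0.027. The causes were not tested.

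Same-numbered libraries share only a number (correlations of their deviations -0.206, 0.225 and 0.049). With the replicate block, 0 members were called, the smallest adjusted p was 0.0972 with limma, and 1762 genes passed by size and unadjusted p, against 1536 without it. At 16 to 26 fragments, the depth does not allow a statement on *EGR2*.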
